A study of Mus musculus with 18 samples.

Results

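Relaxin-3 (Rln3), relaxin-1 (Rln1) and the 4 relaxin family receptors (Rxfp1, Rxfp2, Rxfp3 and Rxfp4) were followed in RNA-seq libraries from the mouse arcuate nucleus, a hypothalamic region that governs reproduction and feeding. The 6 genes were taken by symbol from 23235 in the deposited tables, and all 6 were present. The set was chosen by the level of Rln3 after estradiol in wild-type mice, so the values of Rln3 are given as a description, with no test. The other 5 genes were added by family name and not by their values.

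All mice were ovariectomized C57/BL females. There were 6 groups of 3 libraries: KIKO given estradiol benzoate (E2), KIKO given oil, ERKO given E2, ERKO given oil, wild type (WT) given E2 and WT given oil. After surgery the E2 animals received 250 ng on day 5 and then 1500 ng on day 6, and the oil animals received the vehicle. Tissue was taken 24 h after the last dose, with food withdrawn for 1 h. ERKO mice lack estrogen receptor α (ERα, gene Esr1), and in KIKO mice, by common usage of the name, the remaining ERα cannot bind the estrogen response element. The labels give no age, no construction of either allele and no statement that a library is a single animal, so the spread between libraries may be partly technical. The comparison of genotypes asks which effects of estradiol depend on ERα and on its response element.

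Relaxin-3 is a neuropeptide of an A chain and a B chain, cut from a larger precursor, and its best known source is the nucleus incertus of the brain stem. Its cognate receptor is RXFP3, which couples to inhibitory G proteins and lowers cyclic AMP, and it can also activate RXFP1 and RXFP4. In rats, relaxin-3 given into the hypothalamus increases feeding. Relaxin-1 of the mouse, the counterpart of the circulating relaxin of human pregnancy, acts through RXFP1, which raises cyclic AMP. RXFP2 is the receptor of insulin-like peptide 3 (Insl3), and RXFP4 that of insulin-like peptide 5 (Insl5).

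Sequence before the transcription start is shown for Rln3 and Rxfp2, the members whose WT E2 libraries lay apart from those of both mutants under E2. Each run is the 250 bases before the start in RefSeq on GRCm38.p6, written 5′ to 3′ on the gene's strand. Capitals mark matches, on either strand, to GGTCA (one arm of the palindromic estrogen response element), TGANTCA (AP-1) or GGGCGG (Sp1). The Rln3 run lies at chr8:84044980-84045229 on the minus strand and the Rxfp2 run at chr5:150018425-150018674 on the plus strand.
Rln3: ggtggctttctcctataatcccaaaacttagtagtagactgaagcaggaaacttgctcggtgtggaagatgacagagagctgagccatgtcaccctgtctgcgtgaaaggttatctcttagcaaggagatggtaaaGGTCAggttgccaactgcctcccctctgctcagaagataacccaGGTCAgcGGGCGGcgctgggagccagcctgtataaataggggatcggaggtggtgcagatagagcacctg
Rxfp2: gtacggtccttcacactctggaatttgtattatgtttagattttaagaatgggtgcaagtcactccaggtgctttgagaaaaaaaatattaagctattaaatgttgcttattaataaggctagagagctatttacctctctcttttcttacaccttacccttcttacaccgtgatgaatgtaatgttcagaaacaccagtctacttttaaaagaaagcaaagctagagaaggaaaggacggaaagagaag
The Rln3 run holds 2 such arms, beginning 114 and 70 bases before the start, and 1 Sp1 match beginning 63 bases before it, while the Rxfp2 run holds no match. The full element GGTCANNNTGACC, which contains GGTCA, was in neither run. Of 32851 such windows, 35.2% hold GGTCA, 32.7% an Sp1 match, 6.75% an AP-1 match and 0.0639% the full element, so a GGTCA or Sp1 match is common. These matches describe letters in a short window and not sites of binding. The table has a window for 5 of the 6 genes, without Rxfp1.

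The depth behind the values was read from the deposited confidence bounds. For the 6 genes, 81 values were above 0, and in all 81 the number of fragments implied by the bounds was whole within 0.02. The relative depth of the libraries ran from 0.728 in ERKO E2 3 to 1.5 in KIKO oil 2. Levels are in FPKM, fragments scaled by transcript length and by library size, and can be set side by side between genes. Log2 changes are those of limma on log2(FPKM + 1), given with their standard error, and adjusted p values are limma's, over 14774 genes. Levels averaged over a group are given with their SD (n = 3). The added 1 makes the changes of such low genes smaller than the ratio of their means. Arcuate markers were abundant in every library, with Agrp at 89.2 to 337 FPKM, Pomc at 527 to 1646 FPKM and Kiss1 at 20.9 to 651 FPKM. The labels do not say which part of Esr1 is altered, so its level is only a partial check of genotype. Esr1 ran from 2.85 to 4.08 FPKM in KIKO, from 0.212 to 2.39 FPKM in ERKO and from 3.45 to 11.9 FPKM in WT libraries.

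Over the 12 comparisons the share of all genes that passed ranged widely, and few members did. With Rln3 left out, 0 of 3 members (Rln1, Rxfp2 and Rxfp3) passed for E2 against oil in WT (limma, 0.785% of all genes), 0 of 3 in KIKO (0.00677%) and 0 of 3 in ERKO (0%). Under E2, 1 of 3 passed for KIKO against WT (0.948%), 1 of 3 for ERKO against WT (1.3%) and 0 of 3 for KIKO against ERKO (0.0135%). Under oil, 0 of 3 passed for KIKO against WT (0.0135%), for ERKO against WT (1.43%) and for KIKO against ERKO (0%). For the difference in E2 response, 0 of 3 passed for KIKO minus WT (0.135%), for ERKO minus WT (0.278%) and for KIKO minus ERKO (0%). Where none passed, 1 member had an unadjusted p under 0.05 for E2 against oil in WT, for KIKO against WT under oil and for the responses of KIKO and ERKO against WT, and 0 in the other comparisons.

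The library ERKO E2 3 stood apart, with a median correlation of 0.929 with the other libraries against 0.964 to 0.986 for the rest. Of the markers of the paraventricular and supraoptic nuclei, it held 13107 FPKM of Avp and 7392 FPKM of Oxt. No other library held more than 4581 FPKM of Avp or 2714 FPKM of Oxt. The part of this in the ERKO E2 values was not tested.

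Rln3, on chromosome 8, was found at a clear level in a single group. The WT E2 libraries held 11.4, 16.4 and 9.47 FPKM of Rln3, and the WT oil libraries were all listed at 0. Behind these stood 48, 64 and 42 fragments in the WT E2 libraries and 0 in each WT oil library. At the depth of the WT oil libraries, 3 fragments of Rln3 would be 0.838, 0.683 and 0.705 FPKM, which is the level that a count of 0 allows, counting error only. All 3 WT E2 libraries lay above this limit, and the groups did not overlap. Because Rln3 was picked for this difference, it carries no test, and no fold is given against a group listed at 0.

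In the mutant libraries Rln3 was a trace under either treatment. The KIKO E2 libraries held 0.484, 0 and 0.434 FPKM, and the KIKO oil libraries 0, 0.289 and 0.608 FPKM. The ERKO E2 libraries held 0.404, 0.683 and 0 FPKM, and the ERKO oil libraries 0.402, 0.546 and 0 FPKM. Of the 12 mutant libraries 8 had Rln3 fragments, 2 or 3 each and 19 in all, against 154 in the 3 WT E2 libraries, and E2 and oil overlapped in both genotypes. Rln3 was above the filter only through WT E2, so its fitted changes within and between the mutants are not given as tests. With 4 or 5 fragments summed over each mutant group, a difference between these groups was not detectable at this depth.

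**Figure D1:**
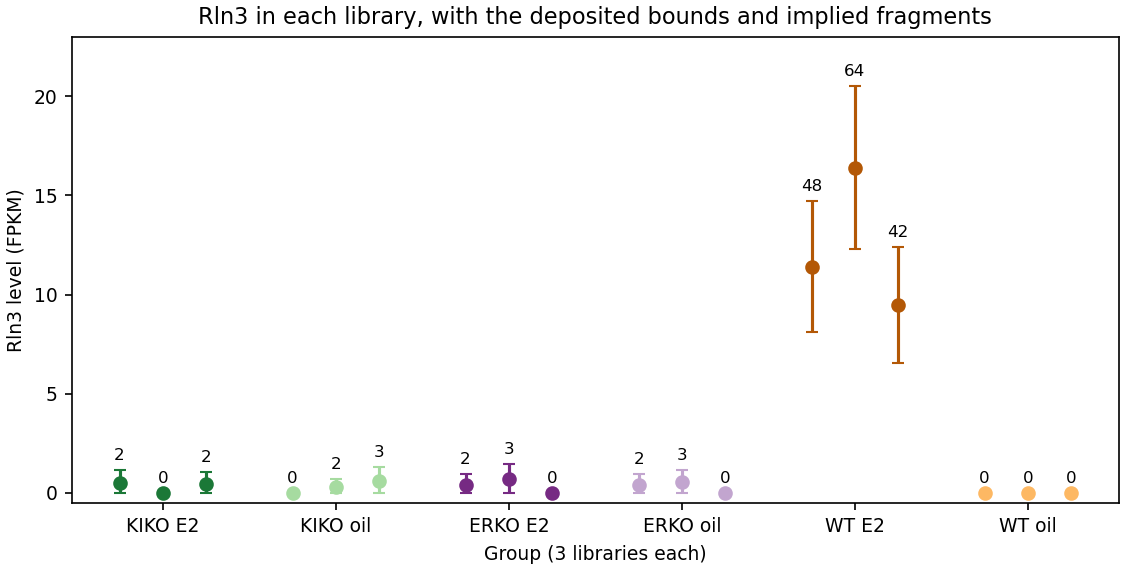
Rln3 level (FPKM, vertical axis) in each of the 18 libraries, grouped along the horizontal axis, with the deposited lower and upper bounds as bars and the implied number of fragments above each point. The 3 WT E2 libraries have lower bounds of 6.55 FPKM or more, above the highest upper bound of the other 15 libraries, 1.47 FPKM.

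The deposited bounds of these same values cover counting error within a library and not the spread between libraries. The lowest lower bound among WT E2 libraries was 6.55 FPKM and the highest upper bound among the other 15 libraries was 1.47 FPKM. Over the whole table, Rln3 was the only symbol listed at 0 in all WT oil libraries that reached 5 FPKM in all WT E2 libraries. At a cut of 1 FPKM in place of 5 there were 2 such symbols, Rln3 and Defb18. A looser condition was less than 1 FPKM in each of the 15 other libraries. Under it 3 symbols reached 5 FPKM in all WT E2 libraries, namely Rln3, the water channel Aqp5 and the collagen Col24a1, and 13 reached 1 FPKM. Both conditions and their cuts were set after the values of Rln3 were known, so they describe Rln3 and do not test it.

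Markers of neighbouring nuclei and of the brain stem were set beside Rln3. Of the 5 listed brain stem genes, Tph2, the enzyme of neuronal serotonin synthesis, moved with Rln3: 0.678, 1.66 and 1.16 FPKM in WT E2 libraries, against 0, 0.05 and 0.232 FPKM in WT oil libraries and at most 0.476 FPKM in the mutants. The summed brain stem level was 0.827 to 1.79 FPKM in WT E2 and 0 to 0.283 FPKM in WT oil, without overlap. In each WT E2 library most of this sum was Tph2, so it repeats that gene and does not describe the list. None of the 5 genes was above the filter, so none was tested. Other markers of the list were at or near 0: Hoxb3 at no more than 0.0190 FPKM, Fev at no more than 0.167 FPKM and the serotonin transporter Slc6a4 at 0.08 to 0.165 FPKM in WT E2 libraries and 0 to 0.214 FPKM in WT oil libraries. The arcuate list itself summed to 2910 to 3440 FPKM in WT E2 and 4330 to 5120 FPKM in WT oil, without overlap, and 2 of its 7 genes fell in limma, where 0.183% of all genes did. By range, Pomc, Cartpt, Kiss1 and Tac2 were lower in WT E2 than in WT oil without overlap. Agrp (255 to 337 FPKM against 165 to 198 FPKM) and Ghrh (164 to 188 FPKM against 124 to 131 FPKM) were higher, and Npy overlapped. Separation upward was common, as 9.37% of all tested genes were higher in WT E2 without overlap. The share that were lower is not given, so the markers that were lower by range have no such background here and are a description only. The ventromedial list summed to 19.3 to 37.9 FPKM in WT E2 and 37.2 to 42.6 FPKM in WT oil, overlapping. The pituitary list summed to 2.79 to 354 FPKM and 3.31 to 356 FPKM, also overlapping but widely split within each group. Its marker Cga stood at 0, 0.424 and 294 FPKM in WT E2 libraries and at 0, 170 and 307 FPKM in WT oil libraries. The pituitary sum was 144 to 330 FPKM in KIKO E2 and 43.5 to 217 FPKM in KIKO oil. In ERKO E2 it was 17.8 to 202 FPKM and in ERKO oil 2.33 to 256 FPKM. The part of these marker differences in the levels of Rln3 and the other members was not tested. In tissue RNA, fewer cells of a type and less RNA per cell cannot be told apart.

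Genes along the chromosome did not share the pattern. Of the 5 protein-coding genes on each side of Rln3 in the RefSeq order, 9 were in the tables and 6 were above the filter of 0.5 FPKM on the mean. In limma 0 of these 6 passed for WT E2 against WT oil, with log2 changes from −0.27 to 0.04 and adjusted p of 0.63 or more, where 0.785% of all tested genes passed. Il27ra, a cytokine receptor subunit and the nearest gene on one side, stood at 0.0772 to 0.390 FPKM in WT E2 and 0 to 0.254 FPKM in WT oil. Rfx1, a transcription factor gene and the nearest on the other side, stood at 13.9 to 19.4 FPKM in WT E2 and 15.2 to 17.9 FPKM in WT oil. The E2 and oil ranges overlapped for all 9 neighbours.

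**Figure D2:**
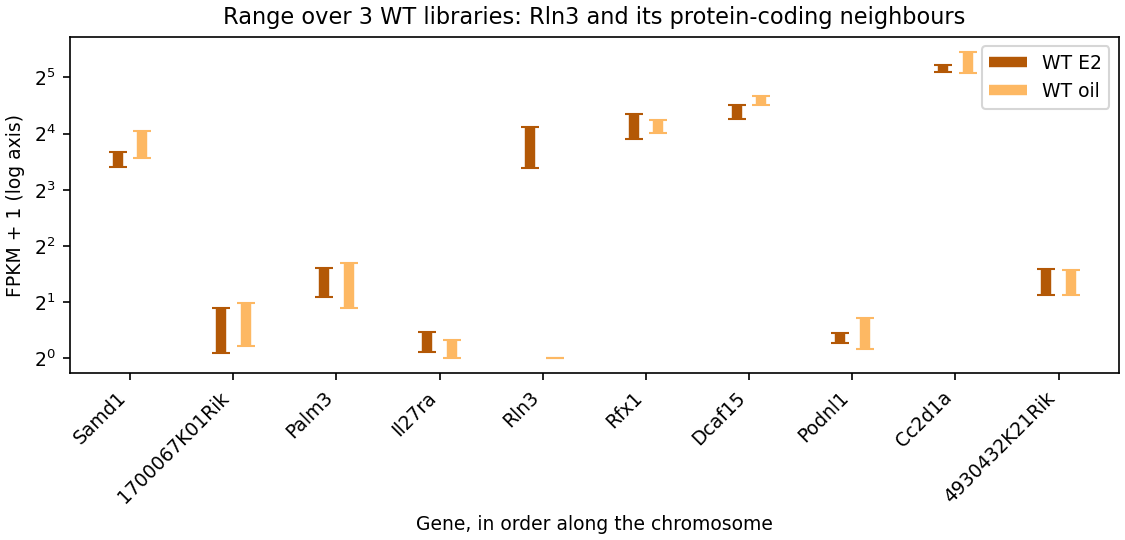
Lowest to highest level over 3 libraries (FPKM + 1, log axis) in WT E2 and WT oil for Rln3 and the 9 measured protein-coding neighbours, in their order along the chromosome. Only for Rln3 do the WT E2 and WT oil bars lie apart, and the neighbours' bars overlap.

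The genes most like Rln3 were ranked by Pearson's r on log2(FPKM + 1) over the 18 libraries. Since 3 WT E2 libraries stand apart from the other 15, r mainly measures that gap and is a description only. The 10 highest were Aqp5 (r = 0.974), Fam151a (0.958), Col24a1 (0.949), Phf21b (0.949), Greb1, an ERα cofactor (0.946), Mad2l1, a spindle checkpoint protein (0.943), Map2k1, a kinase of the MAP kinase cascade (0.943), Accn4, of the acid-sensing channel family (0.937), Pvrl1, a cell adhesion molecule (0.925), and Oxtr, the oxytocin receptor (0.920). Aqp5 stood at 5.78 to 14.6 FPKM in WT E2 libraries and at no more than 0.557 FPKM in the other 15. Greb1 stood at 4.80 to 6.29 FPKM and at no more than 0.676 FPKM, and Map2k1 at 150 to 192 FPKM against 94.3 to 113 FPKM. Ranking by r selects genes with this gap between WT E2 and the rest, so that they share it is not a separate result. The level outside WT E2 was near 0 for Rln3 and Aqp5 and high for Map2k1.

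**Figure D3:**
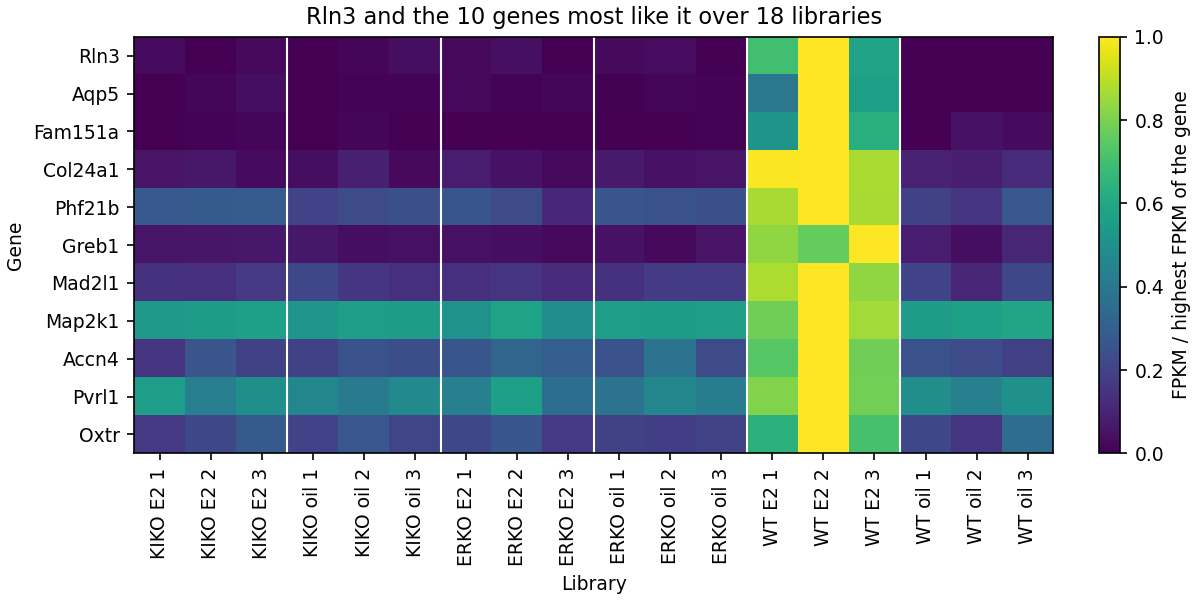
Level of Rln3 and the 10 genes with the highest Pearson's r with it, in each of 18 libraries (columns, by group), as a share of the gene's own highest FPKM (colour). In every row the highest share lies in a WT E2 column, which the ranking by r favours. The other 15 columns are near 0 for Rln3, Aqp5 and Fam151a and well above 0 for Map2k1 and Pvrl1.

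Rln1, the other relaxin peptide and on chromosome 19, had a low level in every library and did not share the pattern of Rln3. The KIKO E2 libraries held 2.24, 2.71 and 2.83 FPKM and the KIKO oil libraries 2.61, 2.83 and 3.86 FPKM. The ERKO E2 libraries held 1.76, 1.61 and 3.73 FPKM and the ERKO oil libraries 1.97, 3.66 and 2.53 FPKM. The WT E2 libraries held 2.46, 1.54 and 1.10 FPKM and the WT oil libraries 1.67, 2.97 and 1.66 FPKM, so all groups overlapped with their neighbours in order of level. Between 9 and 37 fragments stood behind each value. The log2 change with E2 was −0.18 ± 0.25 in KIKO, −0.17 ± 0.25 in ERKO and −0.20 ± 0.25 in WT. Without ERKO E2 3 the ERKO value was −0.45, and the Rln1 difference between ERKO and WT under E2 was 0.02 in place of 0.29 ± 0.25. In limma the adjusted p of Rln1 over the 12 comparisons ran from 0.554 to 1. In 15 of 18 libraries Rln1 was above Rln3, and the exceptions were the WT E2 libraries. The genes most like Rln1 were Fgf17 (r = 0.810), Anxa7 (0.777) and Nfatc2 (0.737) over the 18 libraries.

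Among the receptors Rxfp3, on chromosome 15 and cognate to relaxin-3, was the highest in all 18 libraries. The KIKO E2 libraries held 1.52, 1.34 and 1.69 FPKM of Rxfp3 and the KIKO oil libraries 0.523, 1.36 and 1.31 FPKM. The ERKO E2 libraries held 2.06, 1.68 and 1.56 FPKM and the ERKO oil libraries 1.37, 1.48 and 1.73 FPKM. The WT E2 libraries held 2.00, 2.89 and 2.75 FPKM and the WT oil libraries 1.81, 2.33 and 2.33 FPKM. E2 and oil overlapped within each genotype, and the log2 change was 0.31 ± 0.17 in KIKO, 0.13 ± 0.17 in ERKO and 0.16 ± 0.17 in WT (adjusted p = 1, 0.670 and 0.846). Without KIKO oil 1 the KIKO value was 0.10, without ERKO E2 3 the ERKO value was 0.19, and without WT oil 1 the WT value was 0.08.

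The mean of Rxfp3 was lower in the mutants than in WT, but no such difference passed. KIKO E2 averaged 1.52 ± 0.178 FPKM and WT E2 2.54 ± 0.481 FPKM, without overlap (log2 change −0.49 ± 0.17, adjusted p = 0.286). KIKO oil averaged 1.07 ± 0.472 FPKM and WT oil 2.15 ± 0.298 FPKM, again without overlap (−0.63 ± 0.17, adjusted p = 0.205), and KIKO oil 1 was the lowest of all libraries. ERKO oil averaged 1.52 ± 0.183 FPKM, below WT oil without overlap (−0.32 ± 0.17, adjusted p = 0.275), while ERKO E2 at 1.77 ± 0.260 FPKM overlapped with WT E2 (−0.35 ± 0.17, adjusted p = 0.443). Such separation was common: among all tested genes 10.5% were lower without overlap in KIKO E2 than in WT E2, 9.35% in KIKO oil than in WT oil and 18.4% in ERKO oil than in WT oil. KIKO against ERKO gave −0.14 ± 0.17 under E2 and −0.31 ± 0.17 under oil (adjusted p = 0.800 and 0.998), the second without overlap, as for 14.5% of tested genes, and −0.11 without KIKO oil 1. The genes most like Rxfp3 were Casq2, a calcium store protein (r = 0.834), Prss35 (0.794) and Chml (0.776).

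Rxfp2, on chromosome 5 and the receptor of Insl3, was the one member whose difference between groups passed the threshold. The KIKO E2 libraries held 0.342, 0.495 and 0.470 FPKM, and the ERKO E2 libraries 0.504, 0.322 and 0.124 FPKM. The WT E2 libraries held 1.90, 1.35 and 1.56 FPKM, above every mutant E2 library. Of all tested genes, 10.5% were lower without overlap in KIKO E2 than in WT E2, and 6.29% in ERKO E2 than in WT E2. Under E2 Rxfp2 was lower in KIKO than in WT (log2 change −0.85 ± 0.18, 95% interval −1.24 to −0.46, adjusted p = 0.0378), with a ratio of means of 0.272. It was also lower in ERKO than in WT (−0.99 ± 0.18, −1.38 to −0.60, adjusted p = 0.0117), with a ratio of means of 0.198. Rxfp2 was the 1 of 3 members to pass in each comparison, while 0.745% of all genes passed as lower in KIKO and 1.03% as lower in ERKO. Both comparisons use the same WT E2 libraries. The mean of Rxfp2 over all libraries, 0.707 FPKM, was close to the filter, and 63 to 96 fragments stood behind each WT E2 value and 5 to 37 behind each mutant E2 value.

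The KIKO difference was fragile: its call was lost in 9 of 14 alternatives and kept in 5, with changes from −1.67 to −0.77. Leaving out any 1 of the 6 libraries compared ended the call (adjusted p from 0.0854 to 0.166), as did a pseudocount of 0.1, where the change was −1.67 (adjusted p = 0.148), and no filter (0.0510). The ERKO difference was lost without WT E2 1 (−0.91, adjusted p = 0.0673) and with only the groups compared in the fit (0.251), and a pseudocount of 0.1 gave −2.13 (0.0361). Without ERKO E2 3, the lowest of the 18 libraries in Rxfp2, it was −0.88 (adjusted p = 0.0172).

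Under oil Rxfp2 did not separate the genotypes in this way. The KIKO oil libraries held 0.465, 0.482 and 0.405 FPKM, the ERKO oil libraries 0.736, 0.742 and 0.531 FPKM and the WT oil libraries 0.209, 1.21 and 0.881 FPKM. The WT oil libraries were widely spread and overlapped with both mutants, while the KIKO oil libraries lay below the ERKO oil libraries, as 14.5% of tested genes did. The log2 change was −0.24 ± 0.18 for KIKO against WT (adjusted p = 0.705), −0.04 ± 0.18 for ERKO against WT (0.914) and −0.20 ± 0.18 for KIKO against ERKO (0.998). Without WT oil 1, the lowest of the WT libraries, the differences from WT were −0.49 for KIKO and −0.29 for ERKO. Under E2, KIKO against ERKO gave 0.13 ± 0.18 (95% interval −0.26 to 0.52, adjusted p = 0.812), and 0.02 without ERKO E2 3.

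The E2 response of Rxfp2 had a different sign in ERKO and WT without passing in either. It was −0.02 ± 0.18 in KIKO (adjusted p = 1), −0.35 ± 0.18 in ERKO (0.473) and 0.60 ± 0.18 in WT (0.194). Without WT oil 1 the WT value was 0.35, and without ERKO E2 3 the ERKO value was −0.24. In WT the E2 libraries lay above the oil libraries, as 9.37% of all tested genes did, and in ERKO the E2 libraries lay below the oil libraries, as 6.92% did. Tested directly, the response of KIKO minus that of WT was −0.61 ± 0.26 (95% interval −1.17 to −0.06, adjusted p = 0.933) and that of ERKO minus WT −0.95 ± 0.26 (−1.50 to −0.39, adjusted p = 0.175). Without WT oil 1 they were −0.36 and −0.70, and without ERKO E2 3 the second was −0.84. KIKO minus ERKO gave 0.33 ± 0.26 (adjusted p = 0.746). The genes most like Rxfp2 were Trib2, a pseudokinase (r = 0.938), Lamb1, a laminin chain (0.912), and Ssr3, of the translocon (0.912), and its r with Rln3 was 0.754.

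**Figure D4:**
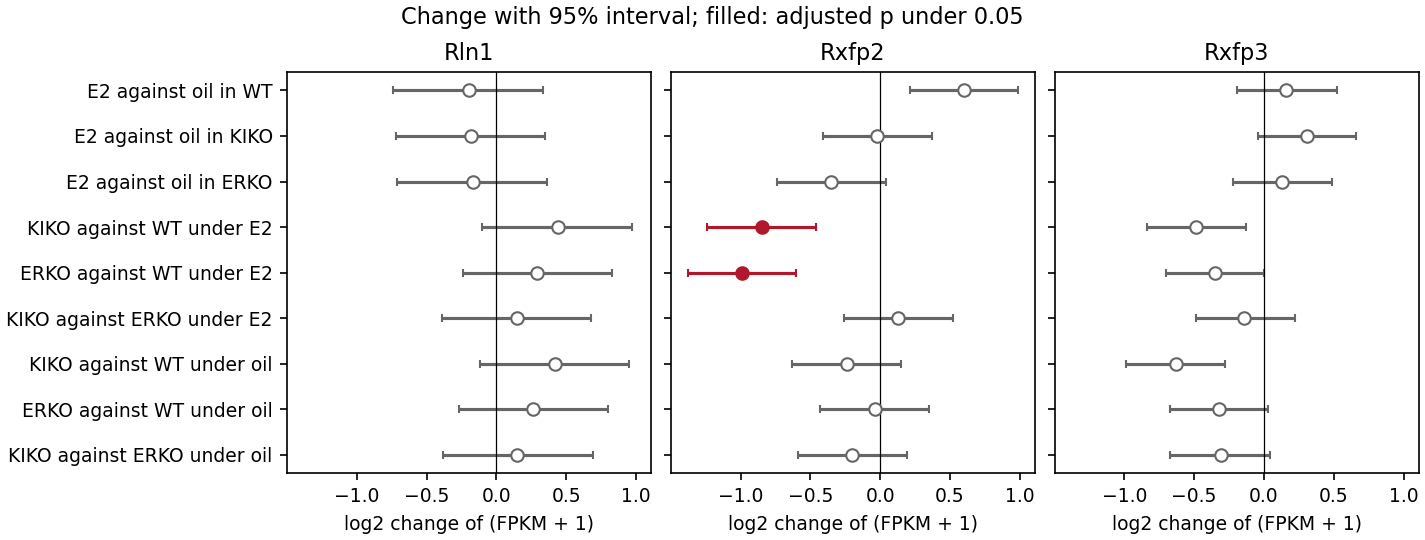
Log2 change of (FPKM + 1) with its 95% interval (horizontal axis) for Rln1, Rxfp2 and Rxfp3 in 9 comparisons (rows), filled where the adjusted p was under 0.05. The filled points are Rxfp2 in KIKO against WT under E2 (−0.85) and in ERKO against WT under E2 (−0.99), and all other points are open.

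Rxfp1, on chromosome 3 and the receptor of relaxin-1, averaged 0.452 FPKM over the libraries and fell below the filter, so it was described and not tested there. The KIKO E2 libraries held 1.27, 0.824 and 0.250 FPKM and the KIKO oil libraries 0, 0.185 and 0.104 FPKM. The ERKO E2 libraries held 0.129, 0.262 and 0 FPKM and the ERKO oil libraries 0.129, 0.163 and 0.221 FPKM. The WT E2 libraries held 0.701, 0.657 and 2.20 FPKM and the WT oil libraries 0, 0.321 and 0.723 FPKM. E2 lay above oil without overlap in KIKO, where 4.55% of tested genes did so. It overlapped with oil in ERKO and in WT, where WT E2 3 held the highest value. Of the WT E2 libraries, WT E2 3 also held the most of the pituitary marker Cga, 294 FPKM. Rxfp1 and Cga had the same order of libraries in WT oil and KIKO E2, and different orders in KIKO oil, ERKO E2 and ERKO oil. The part of pituitary tissue in the Rxfp1 values was not tested. In fragments the sums were 90 in KIKO E2 and 14 in KIKO oil, 14 in ERKO E2 and 22 in ERKO oil, and 119 in WT E2 and 35 in WT oil.

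With no filter on low values, limma gave Rxfp1 a log2 change with E2 of 0.66 ± 0.27 in KIKO (95% interval 0.07 to 1.25, adjusted p = 1), −0.06 ± 0.27 in ERKO (−0.64 to 0.53, adjusted p = 1) and 0.66 ± 0.27 in WT (0.07 to 1.25, adjusted p = 0.439). None passed. The difference in response between KIKO and WT had an interval of −0.83 to 0.83, too wide to show that they were alike. ERKO E2 lay below WT E2 without overlap (−0.89 ± 0.27, adjusted p = 0.214), as 6.29% of tested genes did.

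**Figure D5:**
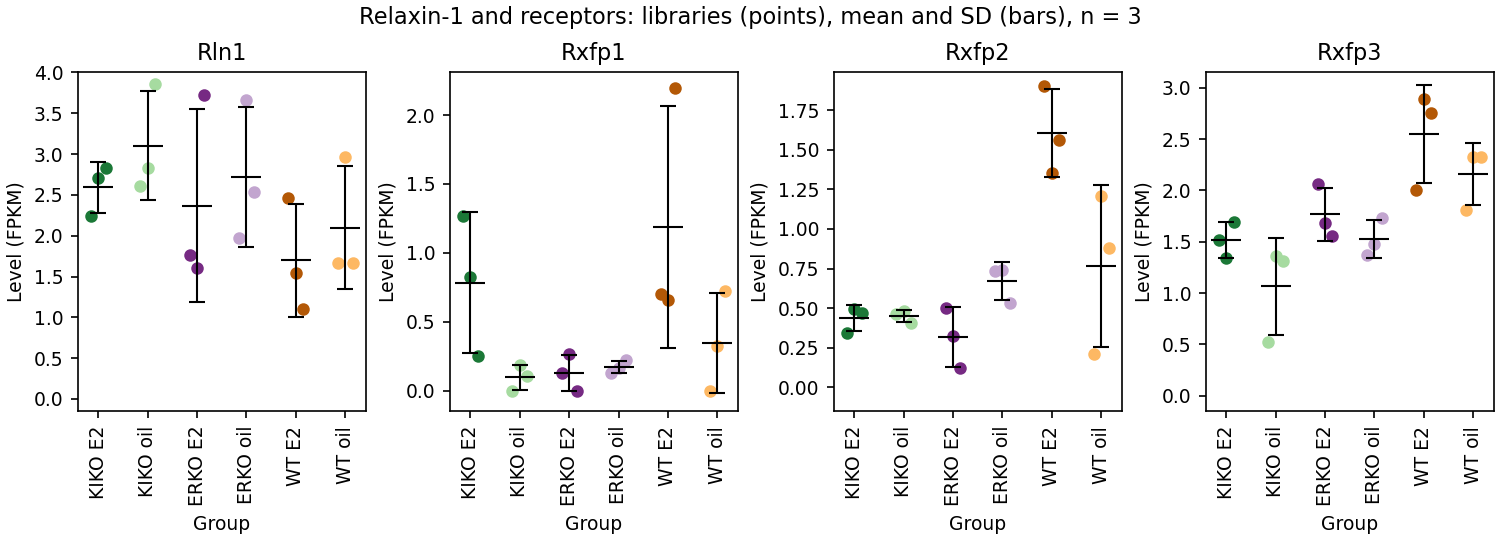
Level (FPKM, vertical axis) of Rln1, Rxfp1, Rxfp2 and Rxfp3 in the 3 libraries of each group (points), with the mean and SD as bars. Rxfp2 in WT E2, at 1.35 to 1.90 FPKM, lies above all other groups, while Rln1 overlaps between E2 and oil in each genotype.

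Rxfp4, also on chromosome 3 and the receptor of Insl5, was listed at 0 in 17 libraries. WT oil 3 held 0.0602 FPKM from 1 fragment. Per length, the receptors thus ordered as Rxfp3, Rxfp2, Rxfp1 and Rxfp4 by their means over the libraries (1.76, 0.707, 0.452 and 0.00334 FPKM), and Rxfp2 was above Rxfp1 in 15 of 18 libraries. The exceptions were KIKO E2 1, KIKO E2 2 and WT E2 3. In KIKO E2 the order of the pair's means turned, at 0.781 FPKM for Rxfp1 and 0.436 FPKM for Rxfp2, though not in KIKO E2 3.

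The remaining peptides of the family were low, and none passed in any of the 12 comparisons (limma, adjusted p of 0.122 or more). Insl6, a peptide best known from testis, held 2.24, 0.604 and 1.73 FPKM in WT E2 and 0.164, 0.268 and 0 FPKM in WT oil, from 33 and 3 fragments, without overlap, as 9.37% of tested genes did (log2 change 1.09 ± 0.32, adjusted p = 0.170). The KIKO oil and ERKO oil libraries averaged 1.13 ± 0.804 and 1.19 ± 0.365 FPKM of Insl6, so the WT oil group was the low one. Insl5 averaged 4.41 ± 0.451 FPKM in KIKO E2, 5.89 ± 2.05 in KIKO oil, 6.21 ± 5.29 in ERKO E2, 3.23 ± 0.730 in ERKO oil, 2.73 ± 1.28 in WT E2 and 4.75 ± 2.88 in WT oil, and ERKO E2 3 alone held 12.3 FPKM. Insl3 ran from 0 to 2.64 FPKM, with fragment numbers that were not whole, and its values are uncertain.

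Genes through which relaxin receptors are known to signal, and those that process relaxin precursors, were counted from a list of 95. The list also held the 3 family peptides Insl3, Insl5 and Insl6 described above, and 89 of the 95 were tested. For WT E2 against WT oil 2 rose and 1 fell, where 0.602% of all genes rose and 0.183% fell, and the median change was 0.02 beside 0.01 over all genes. Pcsk6, a proprotein convertase, rose to 11.6 ± 0.691 FPKM in WT E2, against 6.27 ± 0.890 FPKM in WT oil (0.80 ± 0.11, adjusted p = 0.000932). Map2k1 rose to 169 ± 21.2 FPKM in WT E2, against 110 ± 3.52 FPKM in WT oil (0.61 ± 0.10, adjusted p = 0.00340). Pcsk1, a convertase of neuropeptide precursors, fell to 20.9 ± 5.04 FPKM in WT E2, against 45 ± 13.6 FPKM in WT oil (−1.06 ± 0.23, adjusted p = 0.0377). The call on Pcsk1 was lost in 8 of 15 alternatives, among them the fits without WT E2 1, WT E2 2, WT oil 2 or WT oil 3 (adjusted p = 0.176, 0.159, 0.11 and 0.11), while Pcsk6 passed in all 15 and Map2k1 in all but quantile normalization (0.0821).

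Pcsk6 and Map2k1, which rose in WT, were lower in the mutants under E2. That rise, these comparisons and the response differences below all use the same WT E2 libraries, so they do not add independent support. Pcsk6 averaged 6.91 ± 0.458 FPKM in KIKO E2 and 5.49 ± 0.474 FPKM in ERKO E2, against 11.6 ± 0.691 FPKM in WT E2 (adjusted p = 0.00466 and 0.000119). Map2k1 averaged 106 ± 2.04 FPKM in KIKO E2 and 101 ± 8.96 FPKM in ERKO E2, against 169 ± 21.2 FPKM in WT E2 (adjusted p = 0.00212 and 0.000627). Only these 2 of the 89 passed in either comparison, both as lower, where 0.745% of all genes were lower in KIKO and 1.03% in ERKO. Without ERKO E2 3 the ERKO differences were −0.91 and −0.68 (adjusted p = 0.000271 and 0.000336). With only the groups compared in the fit, both calls for ERKO were lost (adjusted p = 0.123 and 0.537), and quantile normalization ended that of Map2k1 in KIKO (0.107). In their E2 response ERKO minus WT, where 0.183% of all genes passed as lower, they gave −0.85 ± 0.15 and −0.69 ± 0.14 (adjusted p = 0.0239 and 0.0439), and −0.80 and −0.64 without ERKO E2 3. For KIKO minus WT, 0 of the 89 passed (limma, smallest adjusted p = 0.137, with 6 at an unadjusted p under 0.05). Under oil, where 0.751% of all genes rose and 0.684% fell, the list had 1 gene higher and 1 lower in ERKO than in WT. Fos averaged 25.9 ± 4.82 FPKM in ERKO oil and 15.1 ± 1.84 FPKM in WT oil (0.73 ± 0.17, adjusted p = 0.0434). Jun, its partner in AP-1, averaged 25 ± 1.09 FPKM in ERKO oil and 35 ± 2.46 FPKM in WT oil (−0.47 ± 0.11, adjusted p = 0.0437). Leaving out any 1 of the 6 libraries compared ended the call on each (adjusted p from 0.0751 to 0.162 for Fos and from 0.0535 to 0.185 for Jun). For E2 against oil 0 of the 89 passed in KIKO and 0 in ERKO (limma, with 4 at an unadjusted p under 0.05 in each). None of the 15 G protein, 18 cyclic AMP, 14 PI3 kinase and nitric oxide, 2 arrestin and 13 matrix genes passed for WT E2 against WT oil, with 2, 1, 1, 0 and 0 at an unadjusted p under 0.05.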

How the data were processed

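RNA from 18 arcuate nucleus libraries was sequenced on an Illumina HiSeq2500, per the labels' protocols. The authors deposited 1 table per library with FPKM values and bounds. TopHat2 2.0, Cuffdiff and mm10 are named in the submitters' processing notes, and the annotation is not given in the sources used here. Of the 6 genes' starts, 0 lay within 1000 bases of their GRCm38 start, so chromosomes are given without positions. Rows of 1 symbol were summed. Implied fragments are (2 × FPKM / (upper bound − FPKM)) squared, and were not tested.

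A mean of 0.5 FPKM over the libraries was required, small RNA genes were left out, and log2(FPKM + 1) was modelled in limma 3.58.1 (R 4.3.3): 6 group means, 18 libraries, moderated variances with trend and robust, two-sided, Benjamini-Hochberg over 14774 genes, threshold 0.05, 12 comparisons. The fit was tested on simulated data with normal noise, which lack the zeros and small fragment numbers of these genes. The filter passed 4 of the 6 genes, Rln3 only through WT E2, so its fits among the mutants, planned as tests, are not read as such. The members are named in every comparison, list genes where they passed. Members and lists were chosen with earlier results of these data known. Python 3.11.15, numpy 2.4.6, pandas 2.3.3 and matplotlib 3.10.9 were used. The values of 1 brain stem marker are not reported here.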

Additional observations from a re-analysis of the deposited data

Results flagged for a closer look

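Among the 89 tested genes of the list of relaxin signalling, precursor processing and other family peptides, the E2 response differed between ERKO and WT for 2, both as lower. Of all genes, 0.183% passed as lower in that comparison. It holds the same WT E2 and WT oil libraries in which both genes were called for E2 against oil. Pcsk6 had a response difference, ERKO minus WT, of −0.85 ± 0.15 (limma, adjusted p = 0.0239), lost in 9 of 20 alternatives, 6 of them fits without 1 library. Map2k1 had a difference of −0.69 ± 0.14 (adjusted p = 0.0439), lost in 12 of 20, 8 of them fits without 1 library. For KIKO minus WT, 0 of the 89 passed, beside 0.135% of all genes (limma, smallest adjusted p = 0.137, with 6 at an unadjusted p under 0.05). Whether the ERKO and KIKO differences differ from each other is the comparison KIKO minus ERKO. There 0 of 89 passed, beside 0% of all genes, and 1 had an unadjusted p under 0.05.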

How the results depend on the processing

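Of 32 changes of members under 474 alternative values, 450 kept direction and side of the threshold, 11 lost a call and 13 turned sign, each of these uncalled. The number of members called fell to 0 for KIKO against WT under E2 with a pseudocount of 0.1, with no filter and with the replicate block, and to 0 for ERKO against WT under E2 with only the groups compared in the fit. Leaving out libraries gave 0 to 1 in both. With a mean of at least 1 FPKM, Rxfp2 was not tested. Leaving out single libraries moved Rxfp2 between −0.05 and 0.03 for E2 in KIKO and between −0.29 and 0.14 for ERKO against WT under oil (0.05 with a pseudocount of 0.1). It moved Rln1 between −0.45 and 0.0020 for E2 in ERKO and between −0.01 and 0.42 for KIKO against ERKO under E2, and library weights gave Rln1 −0.10 for ERKO against WT under E2. As values with no test, it moved Rln3 between −0.16 and 0.19 for E2 in KIKO and between −0.14 and 0.25 for E2 in ERKO. Of 11 changes of pathway genes under 173 values, in alternatives added after seeing the data, 48 lost the call and 0 turned sign. The cause of these changes was not tested.

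Deviations of same-numbered libraries had a median correlation of −0.0607 over 45 pairs (−0.395 to 0.526). Those of differently numbered libraries had a median of 0.0467 over 90 pairs (−0.515 to 0.454). The replicate block thus rests on a shared number only. With it Rxfp2 had adjusted p = 0.0701 for KIKO and 0.0248 for ERKO against WT under E2. Counts over all genes moved by more than 1.5 times: 116 for E2 in WT became 71 to 397, 140 for KIKO against WT under E2 became 55 to 1030, 192 for ERKO against WT under E2 became 13 to 1302 and 212 for ERKO against WT under oil became 1 to 3319. For KIKO against WT under oil 2 became 0 to 351, for KIKO against ERKO under oil 0 became 0 to 75, for the response of KIKO minus WT 20 became 7 to 59, and for that of ERKO minus WT 41 became 18 to 104. The low fragment numbers of Rln3 in the mutants and of Rxfp1 limit what could be seen there.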
